A study of Mus musculus with 2 samples.

Results

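Core and linker histone genes were taken as every gene whose single platform symbol carries a histone gene name (older Hist names, H1f, H2ac, H2bc, H3c, H3f, H4c, the H2A variants and macroH2A). The rule found 23 genes among the 18193 with a single symbol on the array. They were read by 34 probe sets, with 1 probe set for 14 genes and more for the other 9. Of the 23 genes, 11 were replication-dependent, meaning that they now have or once had a Hist name, and 12 were variants.

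The samples were mouse peritoneal macrophages from male C57BL/6 mice, transfected with an siRNA against HDAC9 (1 array) or with a control siRNA (1 array), with RNA taken 48 h later. Both groups therefore went through transfection, and the labels state neither the siRNA sequences nor whether cells of several mice were pooled. As neither group was repeated, no test, p-value or spread between cultures could be given, and every difference below is one between these 2 arrays. All values are deposited log2 signals, or log2 ratios of the HDAC9 siRNA array over the control siRNA array.

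Histones package DNA into nucleosomes, built from the core histones H2A, H2B, H3 and H4, with the linker histone H1 bound where DNA enters and leaves. Replication-dependent histone genes sit in clusters, are transcribed mainly in S phase, and their mRNAs typically end in a stem-loop in place of a poly(A) tail. Variant histone genes mostly lie outside the clusters, give polyadenylated mRNAs and are used outside S phase as well, so that they are the main new supply in cells that do not divide. HDAC9 is a class IIa histone deacetylase. The labelling kit named in the labels primes from poly(A) tails, so how fully stem-loop transcripts were read was not tested.

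A floor separated signal from background: log2 6.34, a linear signal of 80.9, under which lay 95% of the signals of 80 probe sets that read receptors of smell and pheromones, which macrophages are not known for. Signals under the floor were raised to it before a ratio was taken, so where only 1 array passed it, the ratio is a lower limit of the difference and is marked "at least". The siRNA target was itself near the floor: Hdac9 had 5.69 on the HDAC9 siRNA array, against 6.88 on the control siRNA array, at least 1.46-fold lower, and its second probe set was under the floor on both. Of all genes, 12090 passed the floor on 1 or both arrays, their median log2 ratio was 0.03, and the 5th and 95th percentiles were -0.46 and 0.71. Macrophage markers gave a summed linear signal of 79047 on the HDAC9 siRNA array and 79475 on the control siRNA array (9 of 10 above background). Of these 9, 6 were above 0 and 3 below, where 54.1% of all genes were above 0. Gata6, a transcription factor of peritoneal macrophages, was at 0.46, Fcgr1 at 0.43, Icam2 at 0.40 and Mertk at 0.37. Adgre1 was at 0.01 and Lyz2 at 0.0004, while Itgam was at -0.01, Cd68 at -0.06 and Csf1r at -0.15. The part of these markers in the histone values was not tested. In bulk RNA, fewer cells of a type and less RNA per cell cannot be told apart.

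The promoters of 4 histone genes are shown because these genes carry the values described below: H2bc22 was past 2-fold, each of H1f2 and H2az1 was lower by its 2 brightest probe sets, and H2ac19 was higher by both of its probe sets. Each line holds the 250 bases before the annotated transcription start on the gene's strand, 5′ to 3′, from RefSeq (build GRCm38.p6), with motif matches in capitals. H2bc22 is at chr13:21787238-21787487 on the plus strand, H1f2 at chr13:23738557-23738806 on the plus strand, H2ac19 at chr3:96240375-96240624 on the minus strand and H2az1 at chr3:137864237-137864486 on the plus strand.
H2bc22: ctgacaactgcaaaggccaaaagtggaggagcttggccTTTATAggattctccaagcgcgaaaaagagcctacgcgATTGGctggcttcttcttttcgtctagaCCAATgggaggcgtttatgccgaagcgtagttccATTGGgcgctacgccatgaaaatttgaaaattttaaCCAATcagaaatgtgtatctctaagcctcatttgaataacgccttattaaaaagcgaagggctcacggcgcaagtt
H1f2: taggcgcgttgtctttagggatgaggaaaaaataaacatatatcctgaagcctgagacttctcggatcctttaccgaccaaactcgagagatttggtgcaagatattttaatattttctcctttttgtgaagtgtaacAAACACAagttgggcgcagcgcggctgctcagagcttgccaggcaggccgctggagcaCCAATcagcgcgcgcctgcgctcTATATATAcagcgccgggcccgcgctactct
H2ac19: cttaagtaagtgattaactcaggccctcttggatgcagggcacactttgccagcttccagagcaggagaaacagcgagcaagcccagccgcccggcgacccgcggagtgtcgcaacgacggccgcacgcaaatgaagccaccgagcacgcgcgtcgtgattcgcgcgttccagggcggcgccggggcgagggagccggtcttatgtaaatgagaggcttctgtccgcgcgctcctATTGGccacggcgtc
H2az1: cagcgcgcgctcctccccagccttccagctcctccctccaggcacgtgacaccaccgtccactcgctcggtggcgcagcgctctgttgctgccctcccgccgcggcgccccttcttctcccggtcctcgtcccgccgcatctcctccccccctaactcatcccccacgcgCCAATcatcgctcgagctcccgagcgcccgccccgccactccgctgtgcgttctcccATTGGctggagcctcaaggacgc

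The motifs searched, on both strands, were the CCAAT box (CCAAT), the TATA box (TATAAA or TATATA, which may overlap), the octamer of H2B promoters (ATTTGCAT) and the AC box of H1 promoters (AAACACA). Of the 23 genes, 19 had a promoter in the RefSeq table, 9 replication-dependent and 10 variant. A CCAAT box was present in 9 of 9 replication-dependent promoters and 6 of 10 variant promoters, against 34.5% of 27025 promoters of the same length. A TATA box was present in 7 of 9 replication-dependent promoters and in 1 of 10 variant promoters, that of H3f3b, against 16.4% of all. Counted only where the match began 20 to 45 bases before the start, a window chosen after the positions were seen, it was in 6 replication-dependent promoters and again in 1 variant promoter, against 3.86% of all.

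The AC box stood at nearly one distance in the 3 linker histone promoters of the replication-dependent class, beginning 112, 115 and 114 bases before the start of H1f2, H1f4 and H1f6; it was also in the variant promoter of H3f3a, and in 6.22% of all promoters. The octamer was in 2 of 9 replication-dependent promoters, those of H2bc18 and H2aw, and in the variant promoter of H3f3b, against 1.61% of all promoters. In the sequences above, H1f2 shows the H1 order of AC box, CCAAT box and TATA box, H2bc22 holds 4 CCAAT boxes and a TATA match 212 bases from the start, and H2ac19 and H2az1 hold CCAAT boxes with no TATA match. The median GC content was 47.2% in replication-dependent and 60.2% in variant promoters, against 52.0% over all promoters. A match describes the letters only, and a missing match says only that these letters are not in this window.

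**Figure D1:**
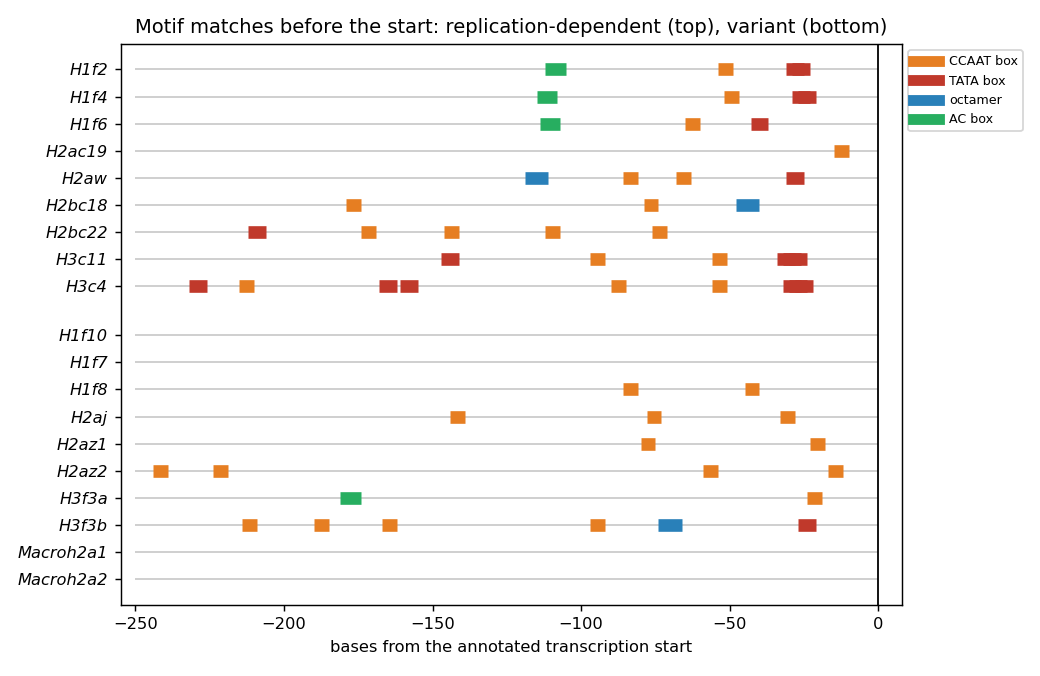
Motif matches in the 250 bases before the annotated start of 19 histone genes, with replication-dependent genes above variant genes; each bar spans a match, and the x axis gives bases from the start. TATA matches lie close to the start in 6 of 9 replication-dependent promoters and in 1 of 10 variant promoters, and the AC box lies 112 to 115 bases before the start in H1f2, H1f4 and H1f6.

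Among the 23 histone genes, 17 were above background on 1 or both arrays (73.9%, against 66.5% of all genes): 7 of 11 replication-dependent and 10 of 12 variant genes. On the HDAC9 siRNA array 6 replication-dependent and 9 variant genes passed the floor, and on the control siRNA array 6 and 8. Under the floor on both arrays were the germ-cell linker histones H1f6 of testis, H1f7 of spermatids and H1f8 of oocytes, the linker gene H1f4 and the H3 genes H3c4 and H3c11. The signal range in the replication-dependent class was 2.98 to 12.24 on the HDAC9 siRNA array and 2.37 to 12.64 on the control siRNA array. In the variant class it was 2.67 to 12.30 on the HDAC9 siRNA array and 1.51 to 12.82 on the control siRNA array. Probe sets differ in affinity, so the order of signals between genes was not read as an order of transcript levels.

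**Figure D2:**
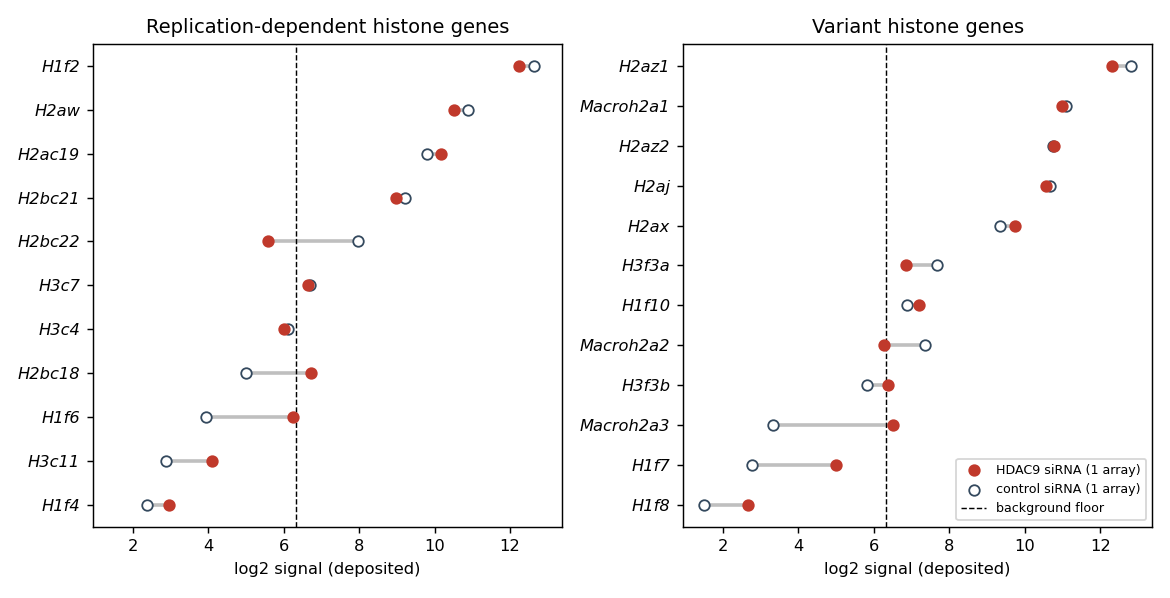
Deposited log2 signal of each histone gene on the HDAC9 siRNA array (filled) and the control siRNA array (open), with the background floor at 6.34 (dashed); each gene is drawn by its brightest probe set. The HDAC9 siRNA value of H2bc22 lies under the floor at 5.58 and its control value above it at 7.97, while the brighter genes of both classes have their 2 points close together.

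Past 2-fold, 2 histone genes were lower on the HDAC9 siRNA array and 0 were higher; 0.372% of all genes above background were at least 2-fold lower and 1.44% at least 2-fold higher. H2bc22, an H2B gene of the largest cluster, had 5.58 on the HDAC9 siRNA array, against 7.97 on the control siRNA array, at least 3.10-fold lower. Macroh2a2, which encodes a variant with a large macro domain found on repressed chromatin, had 6.26 on the HDAC9 siRNA array, against 7.36 on the control siRNA array, at least 2.03-fold lower. A probe set shared by Macroh2a2 and Macroh2a3 had 6.66 on the HDAC9 siRNA array and 6.78 on the control siRNA array (-0.13). Both called genes passed the floor on the control siRNA array only; among all 470 genes of that kind, 3.4% were at least 2-fold lower. Next was H3f3a, 1.77-fold lower (log2 ratio -0.82). Past 1.5-fold, these 3 genes were lower (2.79% of all genes) and 0 histone genes were higher (7.81% of all genes). Of the 12 histone genes above background on both arrays, 0 were past 2-fold, against 1.57% of all such genes.

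Each of these 2 values rests on a single probe set with a name ending in _x_at, a kind whose probes can also bind related transcripts. Of 488 genes valued through such a probe set, 1.64% were at least 2-fold lower. With a higher floor, the 99th percentile of those receptor signals, Macroh2a2 was at -0.44. With a lower floor, the 75th percentile, 4 histone genes were past 2-fold, 2 of them higher (H2bc18 at 1.45 and Macroh2a3 at 1.22), and 6.06% of all genes were past 2-fold either way, against 1.81% with the floor used here. Neither H2bc22 nor Macroh2a2 had a value once names ending in _a_at, _s_at or _x_at were left out.

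Of the replication-dependent genes above background, 5 of 7 had a ratio below 0, against 45.9% of all genes, and their median was -0.23, against 0.03 over all genes. The probe sets shared by several genes, with a replication-dependent gene among them, did not lie mostly below 0. Of 13 above background, 7 were above 0 and 6 below, with a median of 0.01. They include the set naming H2aw and Trim17, and sets of a family list largely the same genes, so they are not separate readings. The median of the replication-dependent genes themselves was -0.03 over the 5 left once probe sets with the suffixes above were left out. With the higher floor it was -0.37. The linker histone gene H1f2 had 12.24 on the HDAC9 siRNA array and 12.64 on the control siRNA array (-0.40). Another of its probe sets had 11.01 on the HDAC9 siRNA array and 11.69 on the control siRNA array (-0.68), and the last was under the floor on both. H2aw, an H2A gene of chromosome 11 formerly named Hist3h2a, had 10.51 on the HDAC9 siRNA array and 10.88 on the control siRNA array (-0.37), while its dimmer probe set was at -0.05. The set shared by H2aw and Trim17 was about as bright as the first, with 10.55 on the HDAC9 siRNA array and 10.66 on the control siRNA array (-0.10). The value of H2aw thus depends on the probe set.

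The H2B gene H2bc21 had 8.98 on the HDAC9 siRNA array and 9.21 on the control siRNA array (-0.23), with its other probe set at -0.41. The H3 gene H3c7 had 6.66 on the HDAC9 siRNA array and 6.69 on the control siRNA array (-0.03). Higher on the HDAC9 siRNA array were the remaining pair. The H2A gene H2ac19 had 10.17 on the HDAC9 siRNA array and 9.81 on the control siRNA array (0.37, and 0.31 by its other probe set). The H2B gene H2bc18 had 6.73 on the HDAC9 siRNA array and 5.005, under the floor, on the control siRNA array, at least 1.31-fold higher.

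Genes of the chromosome 3 cluster lay on both sides of 0. H2ac19, H2bc18 and H2bc21, formerly named Hist2h2aa2, Hist2h2bb and Hist2h2be, had ratios of 0.37, at least 0.39 and -0.23. The 3 genes above background from the Hist1 cluster of chromosome 13 (H2bc22, H1f2 and H3c7) were all below 0, against 45.9% of all genes. H3c7 was at -0.03, and the value of H2bc22 is a bound. With 3 genes, no difference between the clusters can be read.

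Variant histone genes were split evenly, with 5 of 10 ratios below 0 and a median of -0.04. H2A.Z, a variant found at promoters and enhancers, is encoded by a pair of genes. H2az1 had 12.30 on the HDAC9 siRNA array and 12.82 on the control siRNA array (-0.52), and its second probe set was at -0.45. H2az2 had 10.78 on the HDAC9 siRNA array and 10.74 on the control siRNA array (0.04), while its dimmer set gave -0.19. Both probe sets naming H2az1 alone thus lay below those of H2az2. A brighter set shared by H2az1 and Gm8203 was at -0.20, close to the dimmer set of H2az2, so the pair is not clearly set apart.

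H2ax, whose protein is phosphorylated around DNA breaks, had 9.75 on the HDAC9 siRNA array and 9.35 on the control siRNA array (0.40). The linker variant gene H1f10 had 7.19 on the HDAC9 siRNA array and 6.88 on the control siRNA array (0.32). H2aj, an H2A variant gene whose protein accumulates in senescent cells, was at -0.12 and -0.26 by its brighter probe sets, and at least 0.12 by the last, which passed the floor on the HDAC9 siRNA array only. Macroh2a1, the partner of Macroh2a2, had 10.98 on the HDAC9 siRNA array and 11.10 on the control siRNA array (-0.12). Macroh2a3, a transcribed pseudogene in RefSeq, and H3f3b passed the floor on the HDAC9 siRNA array only, with ratios of at least 0.16 and at least 0.05.

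H3.3, the H3 variant laid down outside S phase, was read in different ways by different probe sets. The probe set naming H3f3a alone had 6.85 on the HDAC9 siRNA array and 7.67 on the control siRNA array (-0.82, or 1.77-fold lower). The 5 probe sets annotated jointly to the H3.3 genes and their copies had signals up to 14.09 on the HDAC9 siRNA array and 14.17 on the control siRNA array, and their ratios ran from -0.08 to 0.00. The value of H3f3a therefore differs from that of the bright H3.3 probe sets, which cannot be assigned to a single gene.

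Genes of the histone clusters are nearly identical in sequence, and 26 probe sets in all were annotated to several genes that include a histone gene. Of the 21 above background on 1 or both arrays, 0 were past 2-fold either way, against 1.81% of all genes. At such a share, 0 among 21 does not set these probe sets apart. The 13 of the replication-dependent class were split as given above, while of the 8 of the variant class 2 were above 0 and 6 below, with a median of -0.06. The H2B sets above background on both arrays, listing 11 and 3 genes, were at -0.11 and -0.09; the first lists H2bc22 among its genes and had 13.23 on the HDAC9 siRNA array and 13.33 on the control siRNA array. For H2A.Z, both shared sets are annotated to H2az1 together with Gm8203, so they are not a reading apart from H2az1. Both were lower, at -0.20 and -0.57. The set at -0.20 was the brighter, with 13.79 on the HDAC9 siRNA array and 13.99 on the control siRNA array. The shared H3 sets had ratios from -0.27 (a bound) to 0.78, and the shared H4 sets from -0.61 to 0.37 (a bound), although each family's sets list largely the same genes. The H3 set at 0.78 had 8.86 on the HDAC9 siRNA array and 8.08 on the control siRNA array, and the H4 set at -0.61 had 8.36 on the HDAC9 siRNA array and 8.97 on the control siRNA array. Both have names ending in _s_at.

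**Figure D3:**
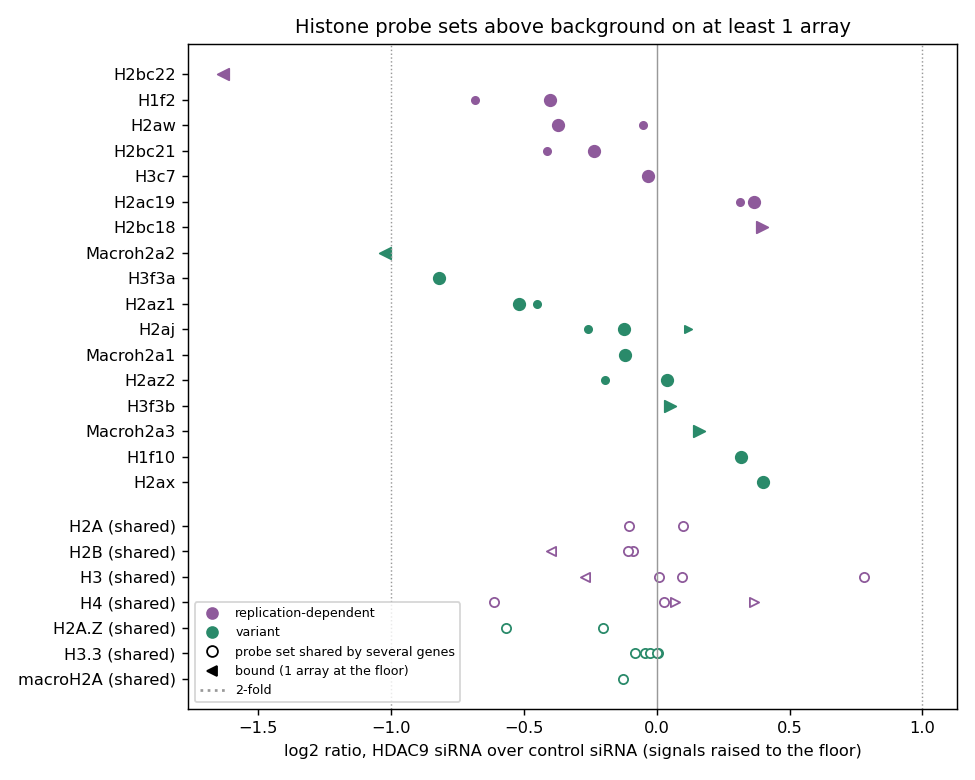
Log2 ratio of the HDAC9 siRNA array over the control siRNA array for every histone probe set above background on 1 or both arrays: large points give the gene's value, small points its other probe sets, open points probe sets shared by several genes, and triangles bounds. H2bc22 and Macroh2a2 lie past the 2-fold line at -1.63 and -1.02, while the shared sets lie between -0.61 and 0.78.

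The agreement between probe sets of a gene gave the only internal measure of error. For 4953 genes with 2 or more probe sets above background on both arrays, the ratios of the 2 brightest were subtracted, and the standard deviation of these differences, scaled to a single probe set (over the square root of 2), came to 0.27 log2. This leaves out differences between cultures. Among histone genes 7 had such a pair, and 6 of 7 pairs lay on the same side of 0, H2az2 being the exception, against 61.5% of all genes; probe sets of H2ac19 and of H2az1 may read overlapping parts of a transcript. Of the 12 genes above background on both arrays, H1f2, H2az1, H2ac19, H2aw, H2ax, H1f10 and H3f3a lay farther from 0 than 0.27. H2bc21, H2aj, Macroh2a1, H2az2 and H3c7 did not. The 0.27 is 1 standard deviation over genes of all signal levels, so the error of a single probe set alone can exceed it. Each of H1f10 and H3f3a rests on 1 probe set not far above the floor. H1f10 was at 0.19 under both quantile normalization and lowess. H2aw was at -0.05 once names ending in _a_at, _s_at or _x_at were left out. Over all genes above background on 1 or both arrays, the median absolute log2 ratio was 0.20. Their share past 0.27 was not counted.

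The genes that make, carry and place histones were measured on the same arrays. Of 26 histone chaperones and exchange factors, all above background, 0 were past 2-fold, 16 were above 0 and 10 below, and the median was 0.07. Among all genes, 1.81% were past 2-fold and 54.1% above 0, so these counts do not set the list apart. Hira, which deposits H3.3, had the largest difference, with 7.83 on the HDAC9 siRNA array and 8.50 on the control siRNA array (-0.67). Ep400, of a complex that places H2A.Z, was at 0.52, and Ipo4, an importer of newly made H3 and H4, was at 0.49.

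Of 19 genes for histone mRNA transcription and end processing, 0 were past 2-fold, 13 were above 0 and 6 below, and the median was 0.13. The shares of all genes were 1.81% past 2-fold and 54.1% above 0. Zfp473 and Lsm11, both of the machinery that cuts histone mRNA at the stem-loop, were under the floor on the control siRNA array and at least 1.74-fold and 1.68-fold higher. Hinfp, an activator of H4 genes, had 8.07 on the HDAC9 siRNA array and 7.62 on the control siRNA array (0.46). Slbp, which binds the stem-loop, was at -0.08 and Npat, the S-phase coactivator of histone clusters, at -0.14; both were picked after their values were seen.

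Of 31 S-phase and proliferation genes above background (32 measured), 0 were past 2-fold, 19 were below 0 and 12 above, and the median was -0.12. The mitotic kinase gene Bub1 had 7.96 on the HDAC9 siRNA array and 8.82 on the control siRNA array (-0.86). The replication licensing gene Cdc6 had 6.32, under the floor, on the HDAC9 siRNA array and 7.10 on the control siRNA array, at least 1.70-fold lower, and Mcm2, a subunit of the replicative helicase, was at -0.44. The shares of all genes were 45.9% below 0 and 1.81% past 2-fold. The part of this list in the histone values was not tested.

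**Figure D4:**
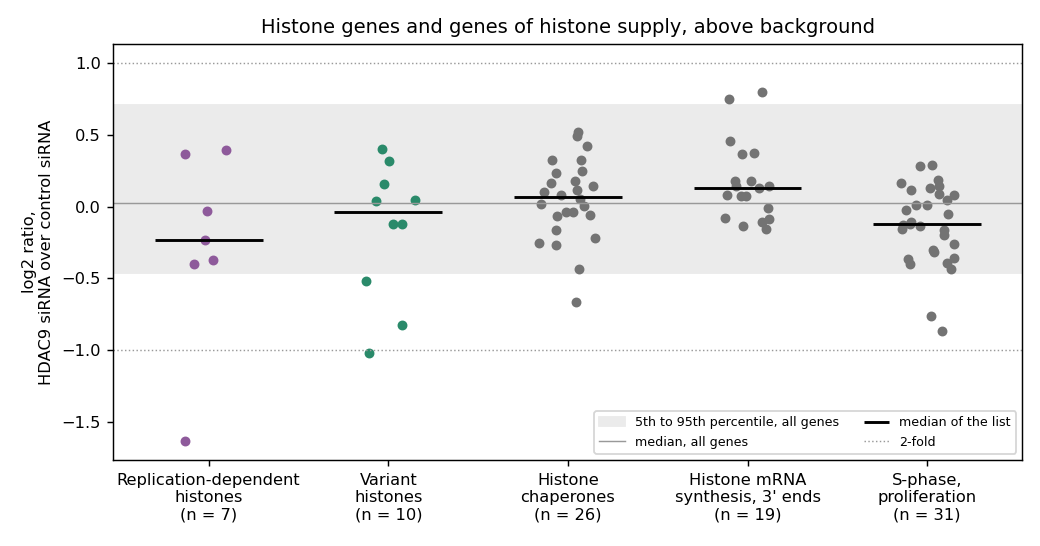
Log2 ratios of the HDAC9 siRNA array over the control siRNA array for the genes above background in each list; points are genes, black bars are list medians, the grey band runs from the 5th to the 95th percentile of all genes (-0.46 to 0.71) and dotted lines mark 2-fold. H2bc22 and Macroh2a2 are the only points past 2-fold, and the other lists have medians of 0.07, 0.13 and -0.12.

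Markers of other cells also differed between the arrays. T cell markers had a summed linear signal of 1071 on the HDAC9 siRNA array and 1729 on the control siRNA array; 4 of 8 were above background and all 4 were lower, with log2 ratios from -0.79 (Cd8a, a bound) to -0.64, while Cd3d, Cd3e, Cd3g and Cd4 were under the floor on both arrays. Mesothelial and stromal markers summed to 61400 on the HDAC9 siRNA array and 46597 on the control siRNA array, with 11 of 11 above background, 7 higher and 4 lower. Past 2-fold among them were the collagen genes Col1a1 (1.80) and Col3a1 (1.46) and the mesothelial gene Msln (-1.11). B cell markers summed to 496 on the HDAC9 siRNA array and 431 on the control siRNA array, with 2 of 7 above background. Among all genes, 45.9% were below 0 and 1.81% past 2-fold. The part of these cells in the histone values was not tested.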

How the data were processed

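Transcript levels were measured on 2 Affymetrix arrays of mouse macrophages, 1 per group. The authors deposited log2 signals, 1 per probe set and array, made with MAS5 per the submitters' processing notes; version, settings and scaling target: not given in the sources used here. Of 45037 probe sets, 34945 had 1 gene symbol, 932 several and 9160 none in the platform annotation; histone members kept their symbols in the RefSeq gene table (23 of 23 matched). Each gene took its probe set with the highest mean linear signal. The authors' scaling was kept. The trimmed mean of linear signals was 497 on each array, which scaling can set by itself, so it is no check. The median log2 signal was 6.59 on the HDAC9 siRNA array and 6.44 on the control siRNA array. Probe sets above background numbered 24140 on the HDAC9 siRNA array and 23158 on the control siRNA array. Counts of genes at a ratio of at least 2-fold stand in for a test. The steps were tested on simulated data, with shifts put only into genes well above the floor. Shifts in genes near the floor, such as H2bc22 and Macroh2a2, were not simulated. Named genes were the members, those past 2-fold in other lists, or else the 3 with the largest ratios there. All 9 macrophage markers above background were also named. The members and lists were chosen with earlier results of these data known. Alternatives were other scalings, floors, probe set summaries and a 1.5-fold threshold. Promoters were read from RefSeq, with the first entry used for genes with several. Python 3.11.15, numpy 2.4.6, pandas 2.3.3 and statsmodels 0.14.6 were used.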

Additional observations from a re-analysis of the deposited data

How the results depend on the processing

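With 1 array per group, no value here has a replicate check, and signals near the floor limit what can be said of H2bc22, Macroh2a2, H2bc18, H3f3b and Macroh2a3. The same limit holds for H3c7, H1f10 and H3f3a, which passed the floor on both arrays but not by far. With the floor at the 99th percentile, H1f10 was at 0.27 and H3f3a at -0.74, both bounds. No paired analysis was possible because each group had 1 array. The counts of 0 higher and 2 lower histone genes held under centring, quantile normalization and lowess. They were also the same with the median over probe sets. There the values of H2bc22 and Macroh2a2 could not change, as each has 1 probe set. With a lower floor (75th percentile of the receptor signals) 4 of 19 were past 2-fold, 2 of them higher (6.06% of all genes). With a higher one (99th percentile) 1 was, and it was lower. With no floor and a pseudocount of 1 there were 7 of 23, 5 of them higher, and 20.4% of all genes were past 2-fold. With names ending in _a_at, _s_at or _x_at left out, 0 were past 2-fold, since H2bc22 and Macroh2a2 then have no value. At 1.5-fold there were 3 lower, against 2.79% of all genes. The median of replication-dependent genes was -0.10 with the lower floor, -0.37 with the higher one, and -0.032 both with no floor and without the suffixed probe sets. The median of variant genes turned to 0.18 with no floor, and that of chaperones to -0.0090 without the suffixed probe sets. The floors and the removal of probe sets change which genes are counted; the cause of the shifts was otherwise not tested. Of 123 values of single genes under the alternatives, 111 moved by less than 0.27, and H2az2 was the only gene to change sign, in 2 of 8 settings. Some of the 111 could not move. Another floor leaves genes well above it as they are, and the median leaves genes with 1 probe set as they are. All settings used the same 2 arrays, so the count does not measure how far the values would repeat. H2bc22 stayed past 2-fold in all 7 settings that gave it a value, from -2.39 to -1.05.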
